A study of Mus musculus with 17 samples.

Results

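The anterior thalamic nuclei are relay nuclei that link the mammillary bodies with the cingulate and retrosplenial cortex. This account describes 8 genes for peptide receptors in these nuclei: Npsr1, Oprk1, Oprm1, Oprd1, Oprl1, Cckbr, Sstr2 and Galr1. They were found by gene name, and all 8 were present among the 52636 genes of the single-cell table and the 28692 genes of the spot table. The genes were chosen by their counts per cluster of cells and per group of spots in an earlier reading of the same data. For that reason the levels, fold changes and standard errors (SE) of these 8 genes are given as description with no test, and tests are given only for other genes: 53 further peptide receptors, 9 ligand genes of the 8 receptors, and 40 genes for G proteins, channels and other proteins that act downstream of such receptors or regulate them.

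All tissue came from wild-type B6 mice, whose age was not given. Single cells were harvested by hand from microdissected, dissociated acute slices of the anterior thalamic nuclei and barcoded in plates. They came from 3 animals by the deposited well annotation, and the animal is the replicate here. Brain sections of 10 µm were placed on Visium slides, an array of barcoded spots that each cover a small area of tissue and can hold several cells; 2 sections were posterior (sections 2 and 6) and 1 was anterior (section 5). The labels do not say whether the sections came from the animals of the single cells or from separate animals, so the spread between sections may be partly technical.

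All 8 genes encode receptors that span the membrane 7 times and signal through G proteins. Npsr1 is the receptor for neuropeptide S, which promotes wakefulness and is known to couple to Gs and Gq. Oprk1, Oprm1 and Oprd1 encode the kappa, mu and delta opioid receptors, Oprl1 encodes the nociceptin receptor, Sstr2 a somatostatin receptor and Galr1 a galanin receptor. These couple mainly to Gi and Go proteins, which open inwardly rectifying potassium channels of the Kcnj family and dampen calcium entry and adenylyl cyclase. Cckbr, the brain-type cholecystokinin receptor, couples mainly to Gq. In the mouse, Npsr1 lies on chromosome 9, Oprk1 on 1, Oprm1 on 10, Oprd1 on 4, Oprl1 on 2, Cckbr on 7, Sstr2 on 11 and Galr1 on 18.

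By the rule of a known animal and at least 1000 genes, 912 of 1216 wells with a cell were kept; 8 of these were recorded under another animal and were left aside, and 877 of the remaining 904 fell into neuron clusters (101, 317 and 459 from animals 1 to 3). The clusters were built without the 8 receptors and without the listed genes, and each is called by a leading gene: Car4 (416 cells), Tnnt1 (243), Calb2 (151) and C1ql2 (38). Slc17a6, the vesicular glutamate transporter of thalamic relay cells, was counted in 391 of 416, 226 of 243, 140 of 151 and 38 of 38 of them. A cluster of 29 cells from animals 2 and 3, called cluster 5, was shallow and stays unnamed, and 27 cells were oligodendrocyte-like. Total counts were 6076566, 3106802 and 28690065 in the neurons of animals 1, 2 and 3, with medians per cell of 49798, 8872 and 50553, so animal 2 is the shallowest. The 384 well barcodes each recur on 2 to 5 plates, as a plate design gives, and 2393 of 4182 spot barcodes occur in more than 1 section. Sections held 2794, 2540 and 2493 spots with totals of 26032042, 13788407 and 18582120 counts in sections 2, 5 and 6. Whether the cell table holds reads or molecules was not given, so intervals cover counting error only.

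Npsr1 was high in the Car4 cluster of every animal and at or near 0 in the other 3 named clusters. Levels are given as CPM, the gene's share of the summed counts of all cells of an animal and cluster, or of all spots of a section and region. Npsr1 had 45.0, 24.4 and 40.4 CPM in Car4 cells of animals 1, 2 and 3, against 0, 0 and 0.319 CPM in Tnnt1 cells and 0 in all 3 animals in Calb2 and C1ql2 cells. The Car4 values did not overlap those of the other 3 named clusters. The Car4 mean was 36.6 ± 10.8 CPM (SD, n = 3), and the fitted log2 difference from the other neuron clusters, weighted equally, was 7.15 ± 0.98 (SE), a value that leans on clusters at 0. Pooled over animals, Npsr1 was at least 104-fold higher in Car4 than in Calb2 cells and at least 52.8-fold higher than in C1ql2 cells, with 3 counts over the group as the floor. These bounds rest mostly on animal 3, which gave 498 of the 674 Car4 counts, and do not hold for each animal. In animal 2 the floor of 3 counts was 4.66 CPM in Calb2 and 18.6 CPM in C1ql2 cells, against 24.4 CPM in Car4 cells.

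The Npsr1 signal was spread over many cells. The 674 counts of the Car4 cluster lay in 97 of 416 cells, 13 of 55 in animal 1, 25 of 164 in animal 2 and 59 of 197 in animal 3, and the highest cell held 5.34% of them. Among these 97 cells the level had a lowest value of 6.42, a median of 121 and a highest value of 800 CPM. Slc17a6 was counted in 96 of the 97, as it was in 391 of all 416 Car4 cells, and 2 of the 97 had 3 or more markers of another cell type. Cells with an Npsr1 count were deeper, with a median of 49498 counts, than Car4 cells without one, with 21548. After every cell was thinned to 5000 counts, 39 of 388 Car4 cells still held a count, against 0 of 222 Tnnt1, 0 of 144 Calb2 and 0 of 38 C1ql2 cells. So did 3 of 24 cells of cluster 5 and 1 of 25 oligodendrocyte-like cells.

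At a finer clustering most Car4 cells lay in 4 clusters of 84 to 142 cells, and mean Npsr1 levels lay between 28.8 and 37.3 CPM in all 4. The mean of the largest was over 3 animals and those of the others over 2. A further cluster of 40 cells stood at 32.5 CPM over 2 animals. Cluster 5 stood at 12.9 CPM on 1 count in animal 2 and at 10.7 CPM on 5 counts in animal 3. Oligodendrocyte-like cells held 13 Npsr1 counts in 4 cells, and all 4 also held Slc17a6. Their level was 52.2 CPM on 6 counts in animal 2 and 7.30 CPM on 7 counts in animal 3, a range that overlapped that of the Car4 cluster. Control wells with no cell held 1 Npsr1 count in 4446656 counts. Markers of pericytes and smooth muscle (6 of 6 detected) summed to between 0.993 and 355 CPM in the Car4 cluster of single animals, and to at most 6.53 CPM in the other 3 named clusters; 5 of 416 Car4 cells held 3 or more of these markers, and the part of that signal in the Npsr1 level was not tested.

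**Figure D1:**
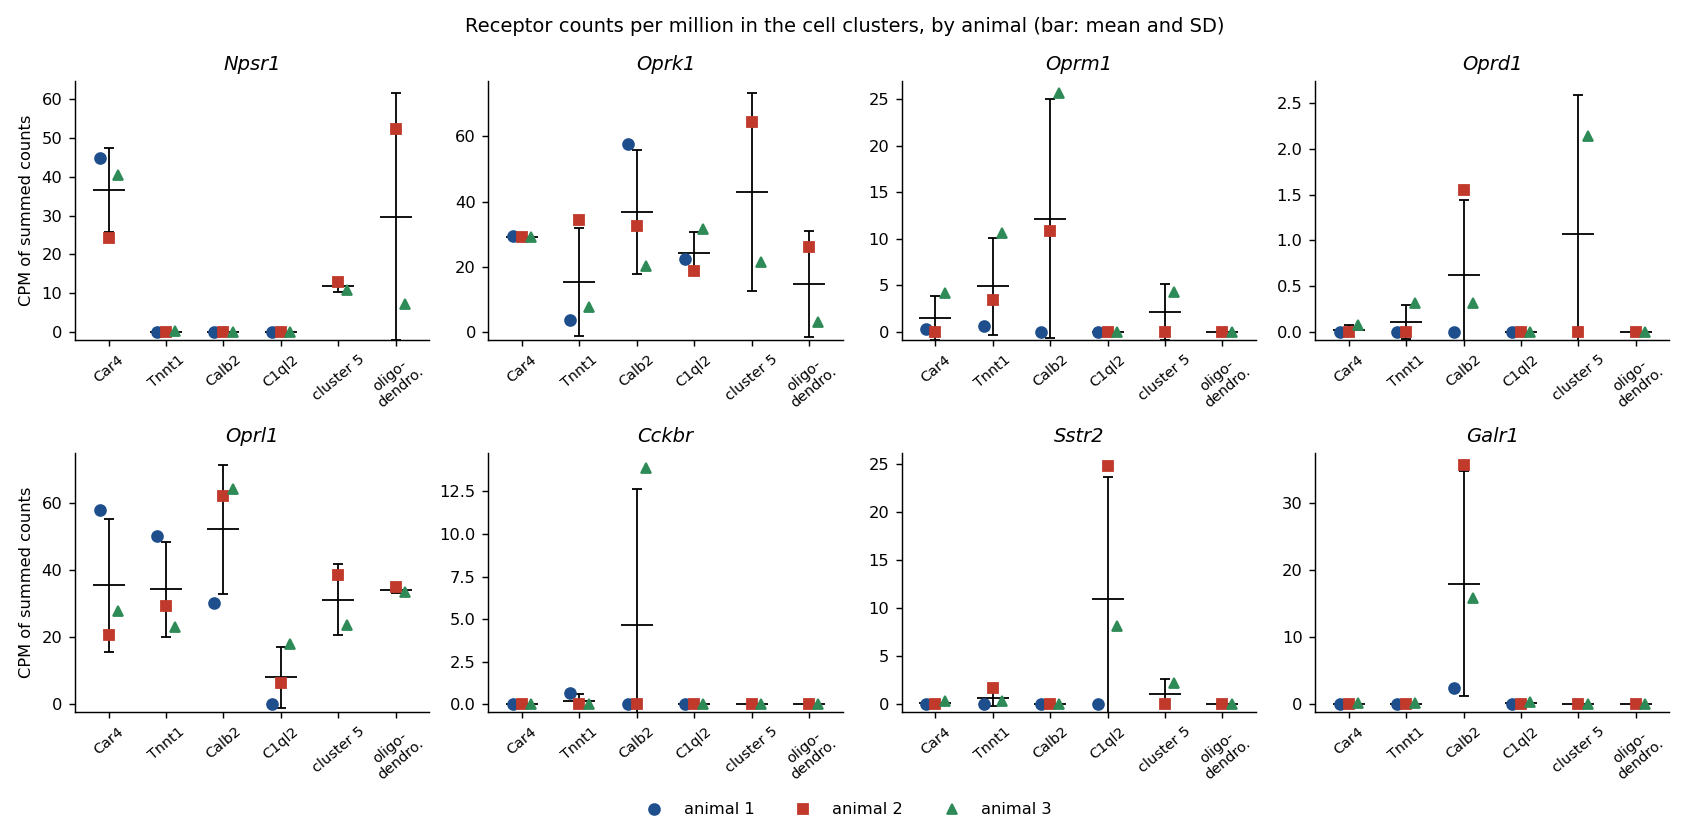
CPM of each receptor, on a linear axis of its own, in the 6 cell clusters (horizontal axis), with 1 point per animal for clusters of at least 5 cells in that animal; the bar and whiskers are the mean and SD, cut at the foot of the axis. Npsr1 stands at 24.4 to 45.0 CPM in the Car4 cluster and at 0 to 0.319 CPM in the Tnnt1, Calb2 and C1ql2 clusters, while Oprk1 and Oprl1 are present in all 4.

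In the sections Npsr1 was highest in thalamic spots. The spots fell into 12 regions, and region 7, with 659 spots (208, 201 and 250 in sections 2, 5 and 6) led by Tcf7l2, Shox2 and Slc17a6, was the thalamic region. Npsr1 stood at 7.85, 5.06 and 4.09 CPM there in sections 2, 5 and 6, on 16, 5 and 7 counts, against 1.58 ± 1.08 CPM in region 2, led by Oxt and Avp (SD, n = 3), 1.59 CPM on 1 count in region 12, which occurred in 1 section, and lower means in the other regions. The ranges of the thalamic region and of region 2 did not overlap. The log2 difference of the thalamic region from the mean of the other regions was 3.33 ± 0.49 (SE).

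Within the thalamic region Npsr1 counts lay mainly in the Nexn subregion, named for a gene of an actin-binding protein (249 spots). It had 21.6, 14.1 and 8.52 CPM in the Nexn subregion of sections 2, 5 and 6, against 3.99, 0 and 2.94 CPM in the Foxp2 subregion, at most 4.50 CPM in any section of the other subregions, and 0 in all sections of the C1ql2 subregion. The Nexn values did not overlap those of any other subregion, but 12, 5 and 5 counts lay behind them. Nexn was also among the leading genes of the Car4 cell cluster. In bulk spots, fewer cells of a type and less RNA per cell cannot be told apart.

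Oprk1, the kappa receptor, was found in all 4 named clusters, with 901 counts in 146 of 877 neurons. It stood at 29.4, 29.2 and 29.0 CPM in Car4 cells of animals 1, 2 and 3, at 57.6, 32.6 and 20.1 CPM in Calb2 cells, at 22.3, 18.6 and 31.5 CPM in C1ql2 cells, and at 3.76, 34.4 and 7.80 CPM in Tnnt1 cells. The ranges of neighbouring clusters overlapped, also for the Tnnt1 cluster, whose mean of 15.3 ± 16.7 CPM (SD, n = 3) was the lowest of the 4 and whose value in animal 2 lay above that of Car4 cells. The Calb2 mean of 36.8 CPM was 22.2 CPM without the cell with the most Oprk1 counts of each animal. Fitted log2 differences of each cluster from the others lay between -1.33 ± 0.70 in Tnnt1 cells and 0.54 ± 0.63 in Calb2 cells (SE).

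Within the Car4 cells Oprk1 was less even than its means. Across the 4 finer clusters that held most Car4 cells its mean lay between 10.5 and 45.6 CPM. The lowest of them stood at 6.28 to 14.7 CPM and the highest at 45.2 to 46.0 CPM. These did not overlap, but each rested on 2 animals only. Car4 cells with an Npsr1 count held Oprk1 in 31 of 97 cells (32.0%), against 49 of 319 (15.4%) of Car4 cells without one. By animal these were 6 of 13 against 3 of 42 cells in animal 1, 4 of 25 against 19 of 139 in animal 2 and 21 of 59 against 27 of 138 in animal 3. Among Car4 cells of at least 20000 counts the shares were 26 of 72 (36.1%) and 28 of 165 (17.0%), with median depths of 63950 and 56321. Cells of 1 animal are not replicates, and the part of depth in these shares was not tested. Without the depth cut the share was larger in cells with Npsr1 in 3 of 3 animals, by little in animal 2. With the cut it was 6 of 13 against 2 of 39 cells in animal 1 and 20 of 58 against 25 of 121 in animal 3. Animal 2 then had only 0 of 1 against 1 of 5 cells. The same comparison for Oprl1 gave 20 of 97 (20.6%) and 59 of 319 (18.5%).

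In the sections the log2 difference of Oprk1 in the thalamic region from the mean of the other regions was 2.01 ± 0.33 (SE), but its level was not highest there. Its mean was 15.1 ± 8.01 CPM in the thalamic region (23.5, 14.2 and 7.60 CPM in sections 2, 5 and 6), 19.8 ± 6.71 CPM in region 3, whose leading genes include Penk and Ppp1r1b, which mark the striatum, and 13.98 ± 4.58 CPM in region 2, led by Oxt and Avp (SD, n = 3 each). These 3 overlapped. Inside the thalamus Oprk1 was high in the subregion led by Calb2 and Foxp2, a transcription factor gene, with 65.8, 37.9 and 26.5 CPM in sections 2, 5 and 6, against 10.8, 2.82 and 0 CPM in the Nexn subregion and 14.6, 7.66 and 16.6 CPM in the C1ql2 subregion. The Foxp2 values did not overlap those of the other subregions; the next highest value, 24.5 CPM in the Prkcd subregion of section 5, rested on 1 count. Oprk1 is also among the leading genes of that subregion, although the subregions were built without it. In single cells the Car4 cluster had 29.2 ± 0.208 CPM, and in the spots the Nexn subregion had 4.53 ± 5.59 CPM (SD, n = 3 each). The assays were not compared by a test.

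**Figure D2:**
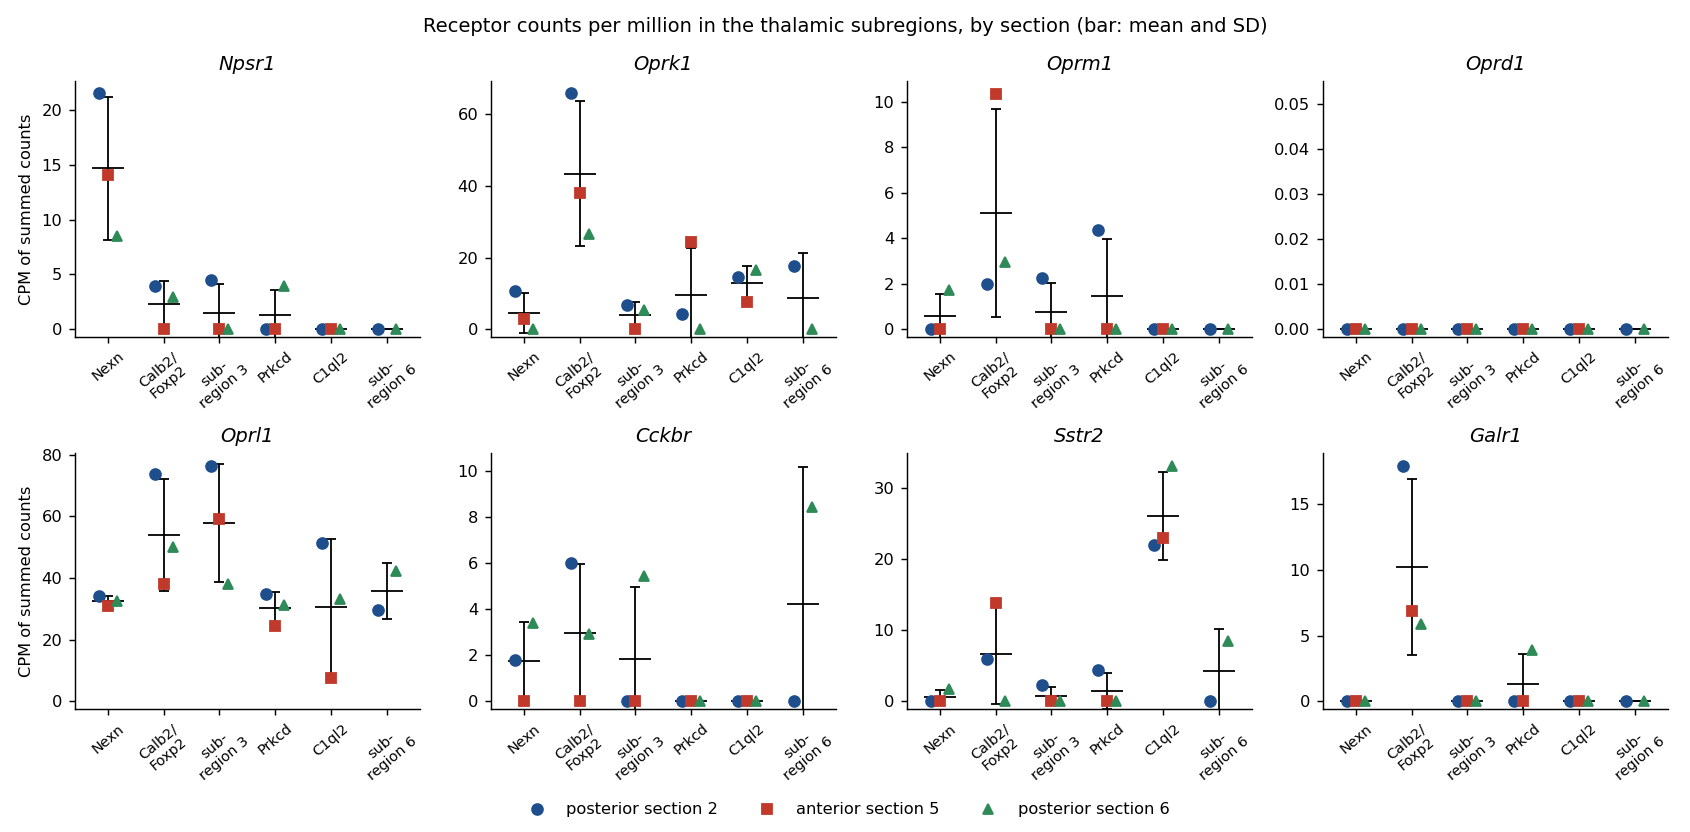
CPM of each receptor in 6 thalamic subregions (horizontal axis), with 1 point per section and the mean and SD as bar and whiskers, cut at the foot of the axis; subregions are called by leading genes, and a section with under 5 spots is not drawn. Npsr1 is highest in the Nexn subregion (8.52 to 21.6 CPM), Oprk1 and Galr1 in the Foxp2 subregion and Sstr2 in the C1ql2 subregion (22.0 to 33.2 CPM).

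Oprm1, the mu receptor, was sparse. It had 296 counts in 37 of 877 neurons: 17 Calb2 cells, 14 Tnnt1 cells, 4 Car4 cells and 2 cells of cluster 5, and 0 of 38 C1ql2 cells. It stood at 0, 10.9 and 25.6 CPM in Calb2 cells of animals 1, 2 and 3, at 0.627, 3.44 and 10.7 CPM in Tnnt1 cells, and at 0.331, 0 and 4.22 CPM in Car4 cells, where 1 cell held 50 of the 53 counts. Ranges overlapped. The Calb2 mean of 12.2 ± 12.8 CPM (SD, n = 3) was 5.43 CPM without animal 3 and 18.2 CPM without animal 1. The fitted log2 difference of Calb2 cells from the mean of the other clusters was 3.84 ± 1.21 (SE), a value that leans in part on C1ql2 cells at 0. In the thalamic region Oprm1 had 8 counts in 659 spots, 5 of them in the Foxp2 subregion (mean 5.09 CPM, or 2.47 CPM without section 5 and 1.72 CPM when clustered with every gene), and it was under the filter on low counts there.

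Oprl1, the nociceptin receptor, was found in all 4 named clusters, with 1340 counts in 194 of 877 neurons. It stood at 57.9, 20.7 and 27.7 CPM in Car4 cells of animals 1, 2 and 3, at 50.2, 29.3 and 23.1 CPM in Tnnt1 cells, at 30.02, 62.1 and 64.1 CPM in Calb2 cells, and at 0, 6.20 and 17.8 CPM in C1ql2 cells. The C1ql2 values lay below those of the Car4, Tnnt1 and Calb2 clusters in all 3 animals, but on few counts in animals 1 and 2. They rested on 0, 1 and 57 counts in 5, 9 and 24 cells of animals 1, 2 and 3. In animal 2 the counting interval of the C1ql2 value, 0.157 to 34.5 CPM, covered the Car4 and Tnnt1 values of that animal. The Car4, Tnnt1 and Calb2 clusters overlapped one another. The log2 difference from the mean of the other clusters was 1.08 ± 0.62 in Calb2 cells and -1.91 ± 0.80 in C1ql2 cells (SE). Thinned to 5000 counts, 27 of 144 Calb2 cells held an Oprl1 count, against 33 of 388 Car4, 15 of 222 Tnnt1 and 2 of 38 C1ql2 cells.

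Across the sections Oprl1 was present in every region. It was highest in region 2, led by Oxt, Avp and Hap1, at 72.7 ± 13.2 CPM, and stood at 41.6 ± 10.9 CPM in the thalamic region and 22.2 ± 2.55 CPM in region 3 (SD, n = 3 each). The log2 difference of the thalamic region from the mean of the others was 0.41 ± 0.12 (SE). Within the thalamus Oprl1 stood at 73.8, 37.9 and 50.0 CPM in the Foxp2 subregion and 76.4, 59.2 and 38.2 CPM in subregion 3, which holds Oxt and Avp among its leading genes, and at 34.1, 31.0 and 32.4 CPM in the Nexn subregion. In the C1ql2 subregion it stood at 51.2, 7.66 and 33.2 CPM, on 7, 1 and 6 counts, and this range overlapped that of the Nexn subregion. Oprl1 was the only member to pass the filter on low counts in the subregion fit, where its log2 difference in the Foxp2 subregion was 0.60 ± 0.25 (SE).

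Oprd1, the delta receptor, was at the edge of detection. It had 7 counts in 7 of 877 neurons, each with 1 count, and 3 of these were in the Calb2 cluster. In the thalamic region it had 0 counts in 659 spots, which allows up to 1.47, 3.04 and 1.75 CPM in sections 2, 5 and 6 with 3 counts as the floor. Elsewhere it was highest in region 3 at 2.59 ± 0.600 CPM (SD, n = 3). Thalamic Oprd1 was not detectable at this depth. The limits in sections 2 and 6 lie below the lowest region 3 value of any section, 1.95 CPM, and the limit in section 5 lies above the region 3 mean.

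Cckbr was low in thalamic spots and high in 3 regions rich in cortical genes. It stood at 1.63 ± 1.49 CPM in the thalamic region, on 4, 0 and 5 counts in sections 2, 5 and 6, against 51.9 ± 5.63 CPM in region 1, 50.5 ± 4.43 CPM in region 4 and 50.0 ± 4.20 CPM in region 8 (SD, n = 3 each), regions high in Slc17a7, the glutamate transporter of the cortex. The thalamic region did not overlap these 3, and the log2 difference from the mean of all others was -3.11 ± 0.39 (SE). Slc17a7 was also high in regions 6 and 12, at 743 and 1128 CPM. Cckbr was lower there, at 31.5 ± 5.63 CPM in region 6 (SD, n = 3) and 11.1 CPM in region 12, which had 1 section. Among neurons Cckbr had 90 counts in 6 cells, 5 of them in the Calb2 cluster of animal 3, where its level was 13.9 CPM; the other 2 animals had 0. Of these 5 cells 4 held 34, 33, 10 and 10 Cckbr counts together with 26, 68, 4 and 27 Slc17a7 counts and 0, 0, 0 and 1 Slc17a6 counts. The fifth held 105 counts of Gad2, the marker of GABA neurons. With neurons of 3 or more markers of another cell type left out, the Calb2 mean of 4.63 CPM was 0.614 CPM, and without animal 3 it was 0.

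Sstr2 was seen in the C1ql2 cells and in the C1ql2 subregion. Among neurons it had 38 counts in 17 cells, 10 of them among the 38 C1ql2 cells, with 0, 24.8 and 8.11 CPM in C1ql2 cells of animals 1, 2 and 3, against 0, 1.72 and 0.319 CPM in Tnnt1 cells, 0, 0 and 0.324 CPM in Car4 cells and 0 in Calb2 cells. Animal 1 had 5 C1ql2 cells and no count. The C1ql2 mean of 10.97 ± 12.6 CPM (SD, n = 3) was 4.06 CPM without animal 2, 16.4 CPM without animal 1 and 6.47 CPM without the cell with the most Sstr2 counts of each animal. Pooled over animals, Sstr2 was at least 19.7-fold higher in C1ql2 than in Calb2 cells, with 26 of the 30 C1ql2 counts from animal 3. In the sections it stood at 22.0, 23.0 and 33.2 CPM in the C1ql2 subregion, on 3, 3 and 6 counts, against 5.98, 13.8 and 0 CPM in the Foxp2 subregion and 0, 0 and 1.70 CPM in the Nexn subregion; the C1ql2 values did not overlap those of the Foxp2 and Nexn subregions. Over whole regions it was highest in region 1 at 43.1 ± 3.36 CPM and region 8 at 32.1 ± 9.39 CPM, and the thalamic region had 6.01 ± 1.81 CPM (SD, n = 3 each), with a log2 difference from the mean of the others of -0.12 ± 0.53 (SE). The list of cortical markers, Slc17a7 among them, summed to 112 to 147 CPM in the C1ql2 cluster of single animals, against at most 38.8 CPM in the other named clusters. Neurod6 and Emx1 of that list were at 0 there, and 0 of 38 C1ql2 cells held 3 of its 5 markers. All 38 C1ql2 cells held Slc17a6, so its presence in the 10 cells with Sstr2 does not set them apart.

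Galr1 lay in the Calb2 cluster in single cells and in the Foxp2 subregion in sections. It had 131 counts in 19 of 877 neurons. It stood at 2.40, 35.7 and 15.9 CPM in Calb2 cells of animals 1, 2 and 3, with 16 of 151 cells and 127 counts, against 0 to 0.312 CPM in any animal of the other 3 named clusters. The groups did not overlap, though animal 1 rested on 2 counts in 1 of 13 cells. All 16 cells held Slc17a6, as did 140 of all 151 Calb2 cells, and none of the 16 had 3 markers of another cell type. The Calb2 mean of 18.01 ± 16.8 CPM (SD, n = 3) was 9.16 CPM without animal 2 and 9.82 CPM without the cell with the most Galr1 counts of each animal. The fitted log2 difference was 7.13 ± 1.16 (SE), a value that leans on clusters at or near 0, as 127 of the 131 counts lay in Calb2 cells. In the thalamic region Galr1 had 14 counts, 13 of them in the Foxp2 subregion at 17.95, 6.89 and 5.88 CPM in sections 2, 5 and 6, and 1 in the Prkcd subregion of section 6. The Foxp2 mean of 10.2 CPM was 6.39 CPM without section 2. Its mean of 2.73 ± 1.46 CPM in the thalamic region was close to 2.67 ± 2.13 CPM in region 2 (SD, n = 3 each), and these ranges overlapped.

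**Figure D3:**
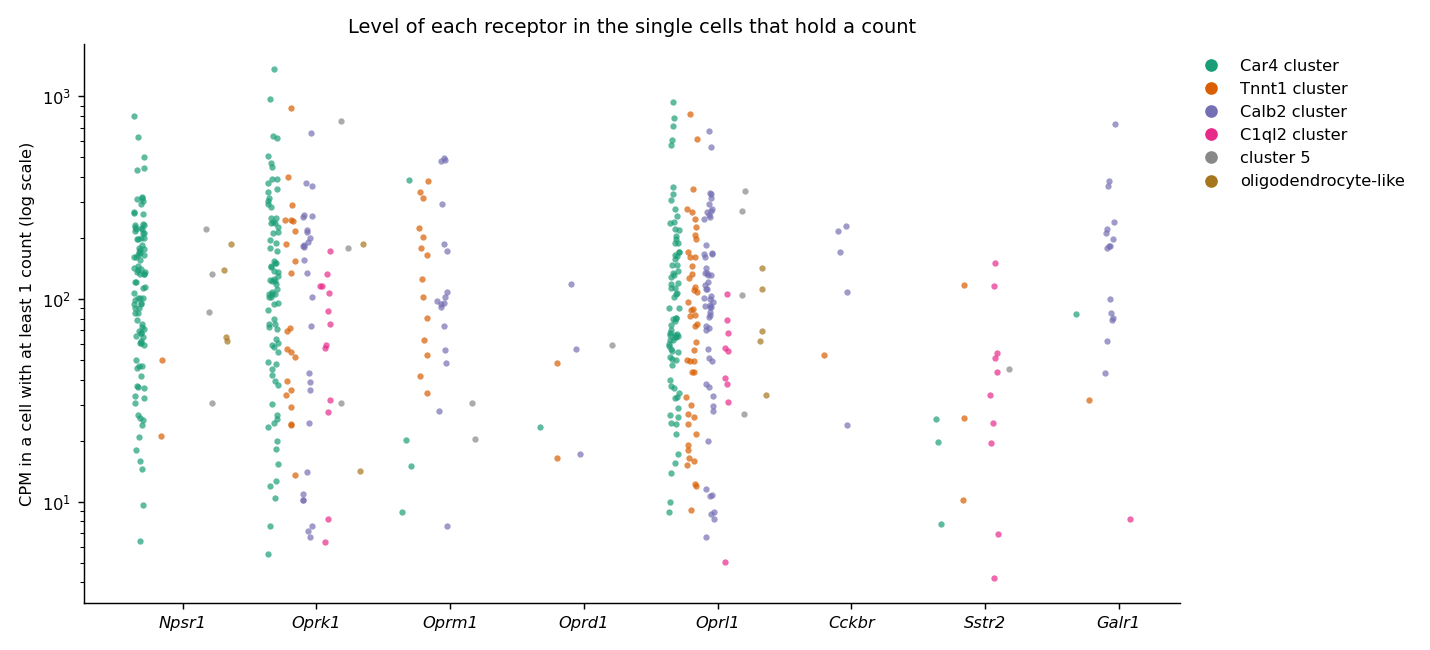
CPM (log scale) of each receptor in every single cell that held at least 1 count of it, by receptor on the horizontal axis and by cluster in colour. Npsr1 points are almost all Car4 cells (97 of 103 neurons), Galr1 points mostly Calb2 cells (16 of 19), and Oprk1 and Oprl1 points come from all clusters.

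**Figure D4:**
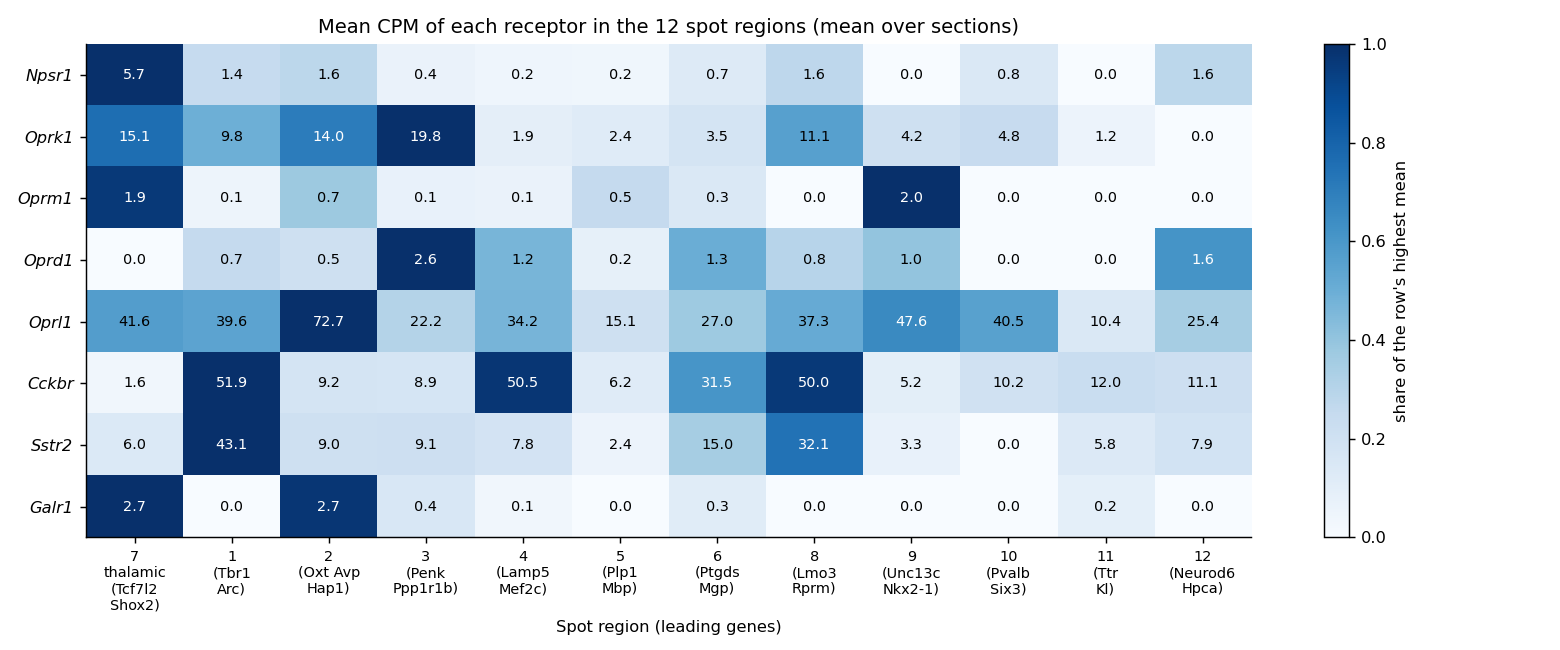
Mean CPM of each receptor over the sections in 12 regions of spots, the thalamic region first, with the mean printed in each cell and the shade scaled to the highest mean of its row. Npsr1 and Galr1 rows are darkest in the thalamic region (5.67 and 2.73 CPM), while Cckbr is palest there (1.63 CPM).

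Few neurons held several of the 8 receptors. Of 877 neurons, 479 held none, 282 held 1, 103 held 2, 11 held 3 and 2 held 4 or more. These counts depend on depth: the number with none is an upper limit and the numbers with 2 or more are lower limits. By profile over the 14 sums of animal and cluster, the genes most like Npsr1 were Pcdh9 (Pearson r = 0.884), Nectin3 (0.874) and Sox5 (0.867), out of 9681 genes; among those most like Oprl1 were Mturn (0.936) and Rhobtb2 (0.935). For Galr1 they were Kcnip1 (0.811), Mcub (0.808) and Fbln1 (0.800), for Oprk1 Mapk6 (0.844), Brinp1 (0.815) and Chid1 (0.810), and for Oprm1 Mapt (0.871), Defb1 (0.855) and Ptk2b (0.829). Over the 34 sums of section and region, Cckbr was most like Sowahb (0.868), Plekho1 (0.848) and Eef2k (0.836), Sstr2 like Ldha (0.874), Nr4a2 (0.847) and Usp46 (0.835), Oprk1 like Fam65b (0.797), Bex1 (0.784) and Zmym3 (0.767), and Oprl1 like Tmx4 (0.918), Prkar1a (0.915) and Disp2 (0.915). These sums share libraries and depth, and the values are a description.

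The genes of the ligands were measured in the same cells and spots. Gal, galanin, was high in Car4 cells at 226 ± 76.6 CPM, in C1ql2 cells at 214 ± 131 CPM and in Calb2 cells at 143 ± 89.5 CPM, and was lower in Tnnt1 cells at 12.7 ± 4.17 CPM (SD, n = 3 each). Cck, cholecystokinin, stood at 1355 to 1598 CPM on average in the other 3 clusters and at 336 ± 129 CPM in C1ql2 cells. Nps, neuropeptide S itself, had 3 counts in Car4 and 2 in Tnnt1 cells and 0 in the thalamic region. Penk and Pdyn, which encode precursors of enkephalin and dynorphin, were highest in region 3, where Oprk1 and Oprd1 were highest too, at 2144 ± 250 and 161 ± 21.5 CPM, against 21.2 ± 24.1 and 4.25 ± 2.03 CPM in the thalamic region. Pnoc, the nociceptin precursor, was highest in region 10 at 72.1 ± 15.3 CPM and next in region 2, where Oprl1 was highest, at 47.9 ± 14.3 CPM.

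For the listed genes, each neuron cluster was tested against the mean of the others by edgeR's quasi-likelihood test, with p-values adjusted over all 12518 genes tested by Benjamini-Hochberg. The fitted differences weigh the other groups equally on the log scale, here and in the sections, so they need not match the ratio of the mean CPM values. In this test 0.447% of genes were called in Car4, 3.31% in Tnnt1, 2.45% in Calb2 and 12.1% in C1ql2 cells. In Car4 cells 0 of 56 listed genes passed, 15 had an unadjusted p under 0.05, and DESeq2 with the same design called 4. Of all 12518 genes, 945 had an unadjusted p under 0.05 in Car4 cells. Over the 4 clusters DESeq2 made 4289 calls among all genes, against 2294 by edgeR. In Tnnt1 cells 1 of 13 other receptors rose, Sstr3, a somatostatin receptor, at 25.2 against 12.6 CPM (log2 difference 4.21 ± 1.03 SE, edgeR adjusted p = 0.0305, 3 of 3 animals), 1 of 6 ligands fell, Gal (-3.50 ± 0.61, edgeR adjusted p = 0.00283, 3 of 3), and 5 of 37 effectors and regulators rose. Rgs16, a regulator that speeds the switching off of G proteins, had the smallest adjusted p of these, with 199 against 95.7 CPM (1.61 ± 0.26, edgeR adjusted p = 0.00177, 3 of 3). Gnao1, Rgs7 and Rgs14 were also higher, at 823 against 524, 138 against 76.5 and 16.8 against 1.66 CPM. The calls of Sstr3 and of these 4 genes were lost without animal 2 and without animal 3, and that of Gal without animal 3. That of Sstr3 was also lost without the block on animals and under both other clusterings tried, that of Rgs14 without the block, with DESeq2 and at Leiden resolution 1.0, and those of Rgs7 and Gnao1 at that resolution.

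In Calb2 cells 3 of 13 other receptors rose: Ntsr1, a neurotensin receptor, at 24.1 against 2.77 CPM (4.82 ± 1.17, edgeR adjusted p = 0.0350), Prokr2, a prokineticin receptor, at 19.6 against 1.09 CPM (5.05 ± 1.24, adjusted p = 0.0389), and Mchr1, a receptor of melanin-concentrating hormone, at 26.9 against 2.85 CPM (5.78 ± 1.46, adjusted p = 0.0437), each in 3 of 3 animals. Of 6 ligands 3 rose, Sst at 84.0 ± 106 against 0.0471 ± 0.0815 CPM, Pnoc at 15.1 ± 12.03 against 0.594 ± 0.802 CPM and Penk at 37.6 ± 36.1 against 0.452 ± 0.475 CPM. Few cells carried these values: the 383 Sst counts lay in 4 of 151 Calb2 cells, the 158 Pnoc counts in 13 and the 495 Penk counts in 12. DESeq2 called none of these 3, Penk was at 0 in animal 1, and Sst and Pnoc, together with Mchr1, were no longer called once neurons with 3 markers of another cell type were left out. Markers of GABA neurons, of which Sst is one, summed to 220 to 1152 CPM in the Calb2 cluster of single animals, and their part in these calls was not tested. Of 37 effectors 1 rose, Plcb1, a phospholipase gene, at 115 against 10.1 CPM (4.23 ± 0.53, edgeR adjusted p = 0.000158), and 1 fell, Rgs6, at 52.8 against 237 CPM (-2.18 ± 0.31, edgeR adjusted p = 0.000524), each in 3 of 3 animals. The calls of Ntsr1, Prokr2, Mchr1, Pnoc and Penk were lost without animal 2 and without animal 3, those of Prokr2 and Penk also without animal 1, and that of Plcb1 without animal 3. That of Mchr1 was also lost without the block, and those of Mchr1 and Pnoc when the clustering used every gene.

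In C1ql2 cells 0 of 13 other receptors passed in edgeR, 0 had an unadjusted p under 0.05, and DESeq2 called 1. Of all 12518 genes, 3358 had an unadjusted p under 0.05 in these cells. Of 6 ligands Cck fell, to 336 against 1331 CPM (-1.93 ± 0.28, edgeR adjusted p = 0.000106, 3 of 3 animals), and Gal rose (1.63 ± 0.45, edgeR adjusted p = 0.0235, 2 of 3). Of 37 effectors 3 rose and 12 fell, among them Rgs16 at 8.48 against 148 CPM (-3.91 ± 0.41, edgeR adjusted p = 5.41e-06), Rgs7 at 17.95 against 110 CPM (-2.39 ± 0.36, adjusted p = 0.000184), Adcy2, an adenylyl cyclase gene, at 262 against 25.3 CPM (4.62 ± 0.57, adjusted p = 2.84e-05) and Gnas, the Gs protein gene, at 3740 against 2405 CPM (0.71 ± 0.11, adjusted p = 0.000308). The calls of Gal and Gnas were lost without animal 3, and that of Gal also at Leiden resolution 1.0. The median log2 difference over these 37 genes was -0.58, against -0.15 over all genes tested; in Car4, Tnnt1 and Calb2 cells it was 0.18, 0.37 and 0.17, against 0.21, 0.22 and 0.12. Over the 13 other receptors the medians were -1.06, 1.36, 3.39 and 0.14, and over the 6 ligands 0.06, -1.04, 4.30 and -1.94, in Car4, Tnnt1, Calb2 and C1ql2 cells.

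Among the thalamic subregions of the sections, 6543 genes were tested, and 10.4% were called in the Nexn, 7.92% in the Foxp2, 1.51% in the Prkcd and 12.7% in the C1ql2 subregion. Effectors and regulators of the receptors were called in each: 7 rose and 2 fell of 30 in Nexn, 1 rose and 5 fell in Foxp2, 5 rose and 1 fell in Prkcd, and 3 rose and 8 fell in C1ql2. Rgs6 was higher in the Nexn subregion, at 131 against 60.3 CPM (1.29 ± 0.18, edgeR adjusted p = 4.01e-09), and lower in the Foxp2 subregion, at 29.8 against 82.8 CPM (-1.26 ± 0.27, adjusted p = 0.000252). Rgs16 was lower in the C1ql2 subregion, at 41.3 against 136 CPM (-1.72 ± 0.31, adjusted p = 4.01e-06), and Adcy2 was higher there, at 152 against 49.3 CPM (1.65 ± 0.24, adjusted p = 1.50e-08), in the same direction as in the C1ql2 cells. In the Prkcd subregion Rgs16 rose, at 180 against 107 CPM (1.02 ± 0.20, edgeR adjusted p = 0.000412), a call lost without section 2. Each of these values held its direction in 3 of 3 sections. Of the 4 ligands tested, Cck fell in the C1ql2 subregion, to 273 against 632 CPM (-1.15 ± 0.15, edgeR adjusted p = 1.01e-10), while Sst was higher in the Nexn subregion, at 139 against 67.7 CPM (1.21 ± 0.18, adjusted p = 2.44e-08), and lower in the Foxp2 and C1ql2 subregions. Of the 2 other receptors that passed the filter, Ntsr2, a neurotensin receptor, and Adcyap1r1, a receptor of PACAP, both fell in the C1ql2 subregion. Neither passed in edgeR in the other 3, where 1, 1 and 0 had an unadjusted p under 0.05 in Nexn, Foxp2 and Prkcd and DESeq2 called 0. Of all 6543 genes, 1388, 1243 and 680 had an unadjusted p under 0.05 in Nexn, Foxp2 and Prkcd. The call of Ntsr2 was lost without section 2 or 6 and without the block on sections, and that of Adcyap1r1 in 7 of 9 alternatives: with any section left out, without the block, with DESeq2, without a filter and when the clustering used every gene. The call of Sst in the Foxp2 subregion was lost without section 2 or 6, and that of Sst in the C1ql2 subregion without section 2 or 5, without the block and with DESeq2. Clustering with every gene also ended the calls of Ntsr2, of Sst in the Foxp2 and C1ql2 subregions and of Rgs16 in the C1ql2 subregion, and resolution 1.0 that of Sst in the Nexn subregion.

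In the thalamic region 13807 genes were tested and 27.9% were called. Of 31 other peptide receptors 8 rose and 4 fell, of 8 ligands 2 rose and 4 fell, and of 39 effectors and regulators 18 rose and 4 fell; their medians were 0.24, -1.05 and 0.18 on the log2 scale, against 0 over all genes. Gpr83, a receptor gene, was lower, at 5.54 against 33.1 CPM (-2.35 ± 0.26, edgeR adjusted p = 6.33e-12). Prokr2 was higher, at 10.8 against 2.40 CPM (3.15 ± 0.45, edgeR adjusted p = 4.06e-08), as was Vipr2, a VIP receptor, at 8.09 against 1.88 CPM (3.17 ± 0.48, adjusted p = 1.34e-07). Among the ligands Cck rose at 584 against 414 CPM (1.30 ± 0.10, edgeR adjusted p = 1.40e-18), and Gal rose (2.91 ± 0.36), while Sst (-1.62 ± 0.15) and Penk (-2.48 ± 0.31) fell. Neither Cck nor Gal was highest in the thalamic region. Mean Cck was higher in regions 1, 4, 6 and 12, at 929, 1119, 736 and 1511 CPM (region 12 in 1 section). Mean Gal was higher in region 2, at 46.0 against 12.8 CPM. Rgs16 was the effector with the smallest adjusted p, at 126 against 7.37 CPM (4.31 ± 0.14, edgeR adjusted p = 1.89e-38); Plcb4 stood at 237 against 66.3 CPM, Kcnj9, a potassium channel opened by Gi and Go proteins, at 110 against 55.9 CPM, and Plcb1 was lower, at 63.5 against 169 CPM. Each named gene held its direction in 3 of 3 sections.

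**Figure D5:**
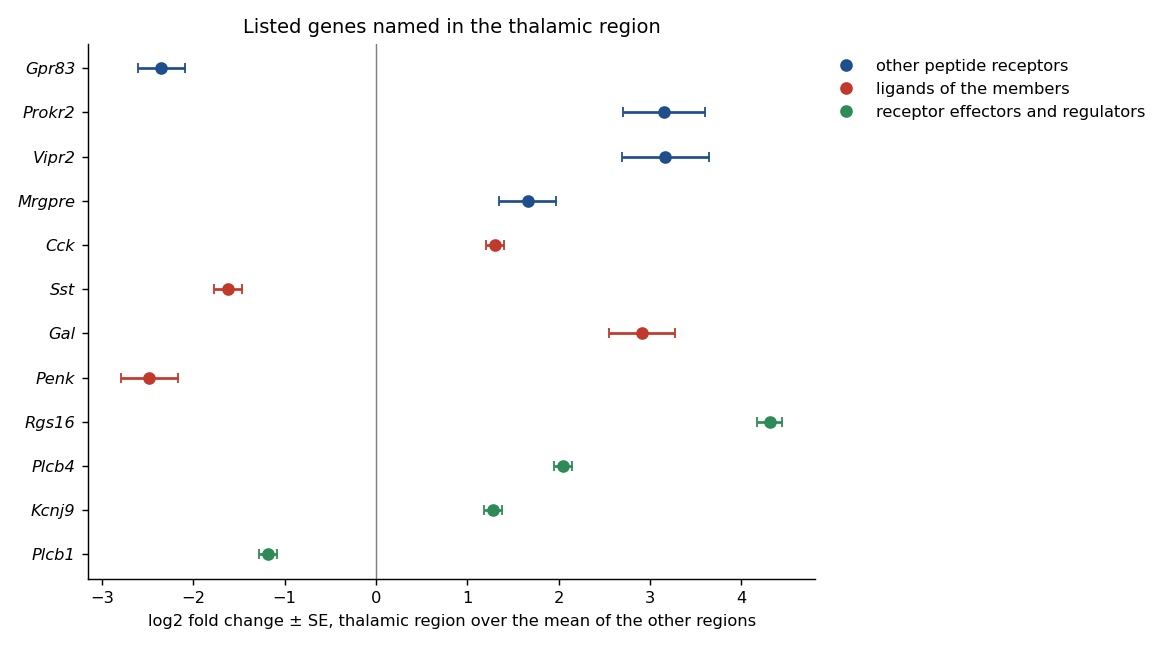
Log2 difference (points) and SE (whiskers) of the listed genes with the smallest adjusted p in the thalamic region against the mean of the other regions, up to 4 per list; colours mark the lists, and the vertical line marks 0. Prokr2, Vipr2, Mrgpre, Cck, Gal, Rgs16, Plcb4 and Kcnj9 lie above 0, and Gpr83, Sst, Penk and Plcb1 below it.

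Because there was 1 anterior section, anterior and posterior values are given side by side with no test. Npsr1 stood at 5.06 CPM (exact 95% interval 1.64 to 11.8) in the thalamic region of the anterior section and at 7.85 (4.48 to 12.7) and 4.09 (1.65 to 8.43) CPM in posterior sections 2 and 6. Oprk1 stood at 14.2 (7.74 to 23.8) CPM in the anterior section, against 23.5 (17.4 to 31.2) and 7.60 (4.05 to 12.996) CPM in the posterior sections, and Oprl1 at 33.4 (23.0 to 46.9) against 53.9 (44.3 to 65.0) and 37.4 (28.8 to 47.8) CPM. For Npsr1 and Oprk1 the anterior value lay between the posterior ones, and for Oprl1 below both, with an interval that overlapped those of both. The counts behind these intervals cover counting error only.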

How the data were processed

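Counts per gene and well (single cells) and per gene and spot (Visium) are used as the authors deposited them. The submitters' processing notes name Seurat, Space Ranger and the builds NCBIM37 and mm10 without roles; aligner and counter are not given in the sources used here. The deposited annotations give each well's animal and each spot's section. The wells could not be matched to the 14 labelled single-cell samples, so the animal number was the replicate. The 8 receptors and the gene lists were chosen with earlier results of these data known.

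Cells with at least 1000 genes, and spots, were log-normalised to 10000 counts and reduced to 30 principal components of 2000 variable genes. They were clustered with scanpy 1.11.5 (15 neighbours, Leiden resolution 0.5), without the receptors and listed genes. Cells were harvested by hand and doublets were not removed. Of the 27 oligodendrocyte-like cells, 12 also held 3 or more markers of thalamic glutamatergic neurons. Counts were summed per animal or section and group (at least 5 cells or spots) and tested in edgeR 4.0.16 (TMM, filterByExpr, quasi-likelihood test, R 4.3.3), with the animal or section as a block, since sums of 1 animal or section share their source; their residuals had a median correlation of 0.0511 in cells, 0.100 in subregions and 0.0756 in regions, against -0.0137, -0.0571 and -0.0465 between different ones. Each group was set against the equally weighted mean of the other groups of its level (cluster 5 included), on the log scale. Genes with adjusted p under 0.05 are called; up to 4 per list and comparison are named, by smallest adjusted p. Likeness is Pearson's r of log2(CPM + 1) over genes with a mean of at least 10 CPM. A gene that this measure ranked is not reported here. The edgeR fits were tested on simulated data. The SE of a fitted log2 difference was not estimated on its own. It is the size of the difference divided by the square root of the F statistic of the quasi-likelihood test, so it restates that statistic. No p-value is given for the 8 receptors. Alternatives were no block, DESeq2 1.42.0, its size factors, no filter, other clusterings, thinning to 5000 counts, cells of at least 2000 genes, leaving out the cell with the most counts of a receptor in each animal and cluster, the mean over single cells, and leaving out each animal or section; leaving out neurons with 3 markers of another cell type was added after seeing the data.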

Additional observations from a re-analysis of the deposited data

Results flagged for a closer look

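Some counts of the receptors lay in wells and spots outside the comparisons. The 8 wells recorded under another animal held 5 Npsr1, 16 Oprk1 and 6 Oprm1 counts in 1, 3 and 2 wells. The 304 wells under 1000 genes held 4 Oprl1 counts, all in 1 well. A thalamic subregion of 6 spots, led by Tac2 and other habenular genes and absent from section 2, held 4 Sstr2 counts in 3 spots. The 27 oligodendrocyte-like cells held 13 Npsr1 counts in 4 cells, 6 Oprk1 counts in 2 and 36 Oprl1 counts in 5, of which 1 cell held 30. All of these cells also held Slc17a6, which 12 of the 27 oligodendrocyte-like cells did, and all held 3 or more oligodendrocyte markers. Control wells held at most 2 counts of any of the 8 receptors in 4446656 counts.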

How the results depend on the processing

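Calls of listed genes depended on the number of animals and sections. Over the 4 neuron clusters 32 calls were made, and 7 to 56 when an animal was left out (56 without animal 1, 10 without animal 2, 7 without animal 3). Over the 4 subregions 40 calls were made, and 20 to 32 when a section was left out (20 without section 2, 32 without 5, 22 without 6). In the thalamic region 40 were made. Without the block on animal or section, which pairs sums by source, the calls were 27 in neuron clusters, 23 in subregions and 33 in the thalamic region. DESeq2 made 37, 31 and 40, with 4289, 1207 and 3502 calls over all genes, against 2294, 2132 and 3852 as reported. The balance of directions moved: in neuron clusters 53.1% of calls were higher as reported, 69.6% without a filter (46 calls), 64.3% without animal 1, 45.9% with DESeq2 and 28.6% without animal 3 (2 of 7). In subregions 47.5% were higher as reported, 74.1% when clustered with every gene (20 of 27), 39.1% without the block, 35.0% without section 2 and 32.4% at resolution 1.0 (34 calls). Leaving out neurons with markers of another type gave 29 calls in neuron clusters. Oprd1 in Calb2 cells was 2.14 CPM after thinning and 0.0541 CPM in cells of at least 2000 genes, against 0.622 CPM. Thinning gave 19.9 against 12.2 CPM for Oprm1 in Calb2 cells, 17.6 against 10.97 CPM for Sstr2 in C1ql2 cells and 2.5 against 4.63 CPM for Cckbr in Calb2 cells, within the SD between animals. Without the cell with the most counts of each animal, Cckbr in Calb2 cells was 2.93 CPM and Oprd1 there 0.0521 CPM. Oprm1 in the Foxp2 subregion was 2.46 CPM at resolution 1.0, against 5.09 CPM. Npsr1 in the Nexn subregion was 14.7 CPM, 24.0 CPM when clustered with every gene and 27.9 CPM at resolution 1.0. With the 8 wells of another animal kept, 1 cluster carried both the Tnnt1 and the Calb2 tags, so those levels mix the clusters. The median log2 difference of all genes moved by up to 0.388 without a filter and 0.118 with DESeq2 in neuron clusters. Every reported call that was still made under an alternative had the same sign there, and depth limits Oprd1, Oprm1, Cckbr and Galr1 in thalamic spots.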
